A study of Mus musculus with 16 samples.

Results

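Transcripts of 9 enzymes that build and edit heparan sulfate were followed across 16 bulk RNA-seq libraries of mouse leukaemia cells. The enzymes were picked by symbol, and all 9 were found among the 55414 gene identifiers counted. Hs6st1 was singled out because it stood near the top of the niche comparison in LSK cells of these same libraries, and the other 8 belong to the same pathway. Values of the niche comparison in LSK cells, of the niche comparison over both cell types and of the difference between the niche effects are therefore given as descriptions. Counts of enzymes past a threshold there stand beside the same share over all genes, and nothing is read from them.

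The cells carried Kmt2a-AFF1, overexpressed the microRNA miR-128a, and came from a mouse model of infant acute lymphoblastic leukaemia of pro-B type. All 16 libraries share both alterations, so no comparison here is with normal cells or with cells lacking miR-128a. Leukaemia-propagating cells (LPC) were sorted from bone marrow (BM) or from the central nervous system (CNS). LSK libraries hold lineage-negative cells with surface Sca1, cKit and IL7R. LK libraries, titled LK/CLP by the submitters, hold lineage-negative, cKit-positive cells without Sca1. There were 4 libraries for each combination of niche and LPC type, 4 groups in all, and the study compared them by niche and by LPC type. The labels used here do not give the age of the mice, the promoter driving miR-128a, or whether the libraries of a group came from separate animals, so p-values measure only the spread between these libraries.

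Heparan sulfate is a sugar chain carried by core proteins of the cell surface and the matrix. It is started on a linkage sugar shared with chondroitin sulfate, lengthened by exostosins, and then modified in the Golgi by N-deacetylase/N-sulfotransferases, an epimerase and O-sulfotransferases. Its sulfate pattern sets which growth factors, chemokines and adhesion proteins bind, and in bone marrow such chains take part in holding blood progenitors in their niche.

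Depth was 19.2 to 29.2 M (mega) counts per library, with 8.60 to 13.6 M in genes that code for proteins. Each level is a counts-per-million value (CPM) on library sizes scaled by TMM, a method that sets the bulk of genes equal between libraries, and a ± value beside a level is an SD over 4 libraries. Sorted cKit was seen as Kit at a mean of 138 CPM, and Ly6a, which encodes Sca1, averaged 1.32 and 1.68 CPM in BM LSK and CNS LSK against 0.542 and 0.678 CPM in BM LK and CNS LK. The labelled pro-B identity was only partly met: Rag1 (275 CPM), Il7r (83.0 CPM) and Dntt (78.4 CPM) were present, while Pax5 (0.593 CPM), Ebf1 (0.667 CPM) and Igll1 (0.153 CPM) lay near the background. T-lineage genes were high (Notch1 1404 CPM, Tcf7 577 CPM, Bcl11b 291 CPM, Lck 222 CPM), although Cd3e stood at 0.276 CPM. The background was read from 1736 olfactory and vomeronasal receptor genes, which most tissues keep silent, and averaged 0.0646 CPM per kilobase of exon.

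Promoter windows of RefSeq (build GRCm38.p6, 250 bases before to 50 after the start) were read for 6 of the 9 genes. Ndst1 was left out of the search, so the counts of windows do not cover it. The 6 genes were Hs6st1, Hs2st1, Ext2, Ndst2, Glce and Sulf2, the last with an additional start, giving 7 windows. Of these, 3 are shown, those of the 2 enzymes whose niche groups did not overlap in LSK cells (Hs6st1 and Glce) and that of Ext2, whose groups overlapped. The groups of Hs2st1 and Ndst2, with 2 and 3 GC boxes, also overlapped. The 3 were picked by niche values already known, so nothing about the niche is read from their motifs. Capitals mark GC boxes (GGGCGG, or CCGCCC on the other strand), the short motif bound by Sp-family factors. Hs6st1 lies at chr1:36068150-36068449 (plus strand), Glce at chr9:62122560-62122859 (minus strand) and Ext2 at chr2:93822519-93822818 (minus strand).
Hs6st1: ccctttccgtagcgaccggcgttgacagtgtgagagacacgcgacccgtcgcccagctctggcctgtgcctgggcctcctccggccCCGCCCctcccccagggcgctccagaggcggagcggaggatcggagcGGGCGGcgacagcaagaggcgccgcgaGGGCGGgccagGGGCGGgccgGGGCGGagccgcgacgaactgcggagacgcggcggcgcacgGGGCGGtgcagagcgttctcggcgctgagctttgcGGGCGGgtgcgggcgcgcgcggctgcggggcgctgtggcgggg
Glce: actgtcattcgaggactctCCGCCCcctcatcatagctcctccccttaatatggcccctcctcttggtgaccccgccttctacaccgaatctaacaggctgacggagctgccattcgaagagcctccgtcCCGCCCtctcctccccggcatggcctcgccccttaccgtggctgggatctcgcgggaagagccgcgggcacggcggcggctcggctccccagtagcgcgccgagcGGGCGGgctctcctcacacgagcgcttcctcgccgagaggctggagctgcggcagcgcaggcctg
Ext2: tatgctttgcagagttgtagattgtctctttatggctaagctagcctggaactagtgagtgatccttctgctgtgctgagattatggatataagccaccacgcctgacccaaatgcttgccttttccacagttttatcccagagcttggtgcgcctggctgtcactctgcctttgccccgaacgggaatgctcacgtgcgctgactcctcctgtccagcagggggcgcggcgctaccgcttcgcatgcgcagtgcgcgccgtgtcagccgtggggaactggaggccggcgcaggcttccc

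The Hs6st1 window was 78.0% G and C, with 47 CpG dinucleotides and 7 GC boxes. Of 32851 RefSeq mouse promoter windows of the same length, 98.8% had no more CpG than this, the median window having 7. Glce had 30 CpG and 3 GC boxes, Hs2st1 had 32 CpG and 2 GC boxes, and Ndst2 had 20 CpG and 3 GC boxes. Ext2 had 18 CpG and 0 GC boxes. At least 1 GC box stood in 5 of the 7 windows, and in 35.7% of all windows. The hypoxia response core (ACGTG, either strand) stood in 2 of the 7, those of Ext2 and one start of Sulf2, and in 19.6% of all windows. These are matches of letters, not binding sites.

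The overexpressed microRNA is the other sequence that bears on every library. Its mature 3p strand is shown with the seed, bases 2 to 8, in capitals.
mmu-miR-128-3p: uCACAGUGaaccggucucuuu

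A match to this seed was searched in the longest annotated 3′ untranslated region of each gene in the GENCODE annotation. Ndst1 alone of the 9 had any, with 2 matches, and 0 of them were followed by the A that strengthens pairing of a target. Among 12910 genes with a region of 551 to 4782 bases, the range of the 9 enzymes, 24.4% had a match. Since all libraries overexpress miR-128a, the comparisons below do not bear on these matches.

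All 9 transcripts were found in every library, and all 9 passed the minimum mean of 10 counts used for testing. Levels of different genes were compared per kilobase of exon. Ndst1, which starts modification by replacing acetyl groups with sulfate, was the highest at 11.2 CPM per kilobase and took 38.0% of the summed level of the 9. Ext2, a subunit of the chain polymerase, followed at 4.51, then Hs6st1, which adds sulfate at the 6-O position, at 3.08 CPM per kilobase. Extl3, which initiates the chain, stood at 3.04, Ndst2, the other N-sulfotransferase here, at 2.22, and Hs2st1, the 2-O-sulfotransferase, at 2.00 CPM per kilobase. Glce, the epimerase that turns glucuronic into iduronic acid, reached 1.74, and Ext1, the partner of Ext2 in the polymerase, reached 1.32 CPM per kilobase. Sulf2, an endosulfatase that removes 6-O-sulfate outside the cell, was the lowest at 0.247 CPM per kilobase, 3.83 times the background.

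Of the 8 pairs of neighbours in this order, the ranges over 16 libraries were apart for 2, Ndst1 over Ext2 and Ext1 over Sulf2. Hs6st1 and Extl3 could not be ordered, Hs6st1 being above Extl3 in 8 of 16 libraries. Ndst2 exceeded Hs2st1 in 13 of 16 libraries and Hs2st1 exceeded Glce in 13 of 16, with overlapping ranges. Ext2 and Ext1, whose proteins work as a complex, stood at 4.51 and 1.32 CPM per kilobase.

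**Figure D1:**
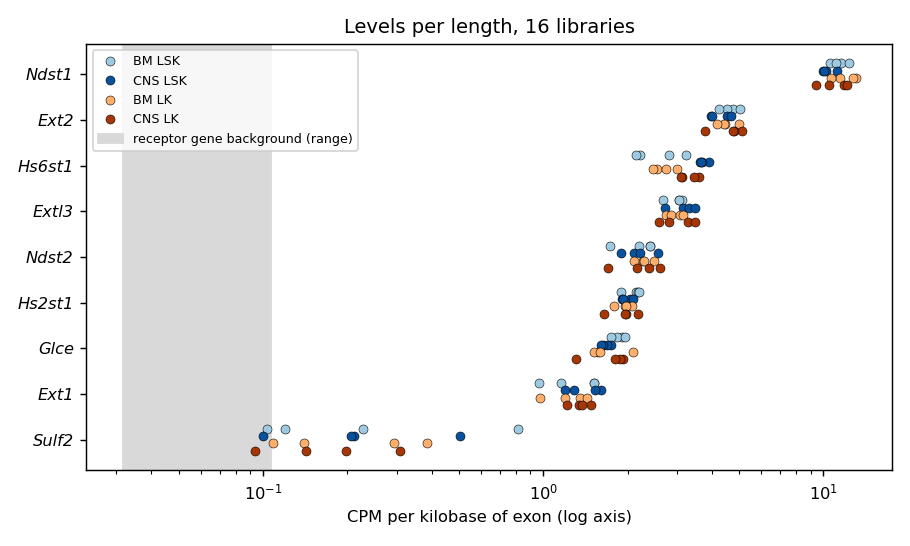
Level of each enzyme transcript per kilobase of exon (log axis) in the 16 libraries, 1 point per library coloured by group, with the grey band showing the range of the receptor gene background. Ndst1 lies above all others, at a mean of 11.2 CPM per kilobase, and Sulf2, at 0.247, is the only one that reaches the band.

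The genes of chain initiation and elongation overlapped between niches in both cell types. Ext1 was 12.3, 7.80, 12.2 and 9.38 CPM in BM LSK and 13.02, 10.4, 12.4 and 9.65 CPM in CNS LSK. In LK cells Ext1 was 10.9, 9.66, 7.86 and 11.6 CPM in BM and 12.01, 10.9, 9.80 and 11.1 CPM in the CNS. The Ext1 libraries of the 2 niches interleave. By label stem, CNS exceeded BM in 7 of 8 stems for Ext1, in 7 of 8 for Extl3 and in 5 of 8 for Ext2. Between niches in LK cells, Ext1 differed by 0.13 on the log2 scale (95% interval −0.19 to 0.44), Ext2 by 0.03 (−0.16 to 0.22) and Extl3 by 0.04 (−0.17 to 0.25). Ext2 ran from 27.7 to 37.6 CPM and Extl3 from 15.7 to 21.1 CPM over the 16 libraries, with highest-over-lowest folds of 1.36 and 1.34.

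Among the N-sulfotransferases, Ndst1 had a slightly lower group mean in the CNS in both cell types. In LSK cells it was 87.3, 95.9, 91.4 and 102 CPM in BM and 82.5, 84.5, 83.1 and 92.3 CPM in the CNS. In LK cells it was 108, 95.1, 106 and 88.4 CPM in BM and 98.2, 86.9, 100.2 and 78.0 CPM in the CNS. The groups overlapped in both cell types. The BM and CNS libraries that share a label stem were lower in the CNS in 8 of 8 stems. What a stem marks is not given in the labels. The log2 difference in LK cells was −0.13 (95% interval −0.31 to 0.05; edgeR quasi-likelihood p 0.146, Benjamini-Hochberg adjusted p 1.00), and in LSK cells −0.14 ± 0.09 (SE). Ndst2 ran from 7.76 to 11.8 CPM, with a log2 niche difference in LK cells of −0.06 (−0.34 to 0.23) and the CNS higher in 4 of 8 stems.

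Hs6st1, the only one of 3 genes for 6-O-sulfotransferases past the minimum count, was higher in CNS libraries of both cell types. In LSK cells, the comparison that singled it out, it was 12.2, 15.6, 11.9 and 17.9 CPM in BM and 21.7, 20.1, 20.5 and 20.2 CPM in the CNS. Every CNS LSK library lay above every BM LSK library, and the CNS libraries were the tighter group (20.6 ± 0.718 against 14.4 ± 2.88 CPM). The LK comparison is not the one that singled it out. Its libraries do enter the comparison over both cell types, whose results were known when the enzymes were chosen. The LK values are therefore not an independent check. In LK cells Hs6st1 was 14.1, 15.2, 13.6 and 16.6 CPM in BM and 17.3, 19.9, 17.2 and 19.2 CPM in the CNS (14.9 ± 1.34 against 18.4 ± 1.35 CPM). Again all 4 CNS libraries lay above all 4 BM libraries, by a margin of 17.2 over 16.6 CPM. With scaling factors computed on all genes without a count filter, the LK groups overlapped.

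The LK difference of Hs6st1 was 0.31 ± 0.11 (SE) on the log2 scale, with a 95% interval of 0.07 to 0.54. By edgeR's quasi-likelihood test its unadjusted p was 0.0133 and its Benjamini-Hochberg adjusted p was 1.00, so it did not pass the threshold of 0.05. In LSK cells the difference was 0.51 ± 0.11 (SE) and over both cell types 0.41 ± 0.08 (SE). The LSK difference exceeded the LK difference by 0.20 ± 0.16 (SE). CNS exceeded BM in 8 of 8 stems. The count of reads behind each Hs6st1 value was 230 to 573.

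The receptor gene background was also higher in many CNS libraries. It was 0.0730 to 0.107 CPM per kilobase in CNS LSK against 0.0317 to 0.0820 in BM LSK, and 0.0387 to 0.0937 in CNS LK against 0.0341 to 0.0488 in BM LK. At 3.08 CPM per kilobase, Hs6st1 stood 47.7 times above the background mean. With the background of each library as a covariate in the fit, the LK difference of Hs6st1 was 0.30 ± 0.13 (SE) and the LSK difference 0.51 ± 0.14 (SE). Within CNS LK the libraries with 17.3, 19.9, 17.2 and 19.2 CPM of Hs6st1 had backgrounds of 0.0592, 0.0387, 0.0632 and 0.0937 CPM per kilobase. Beyond the covariate, the part of the background in the Hs6st1 difference was not tested.

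**Figure D2:**
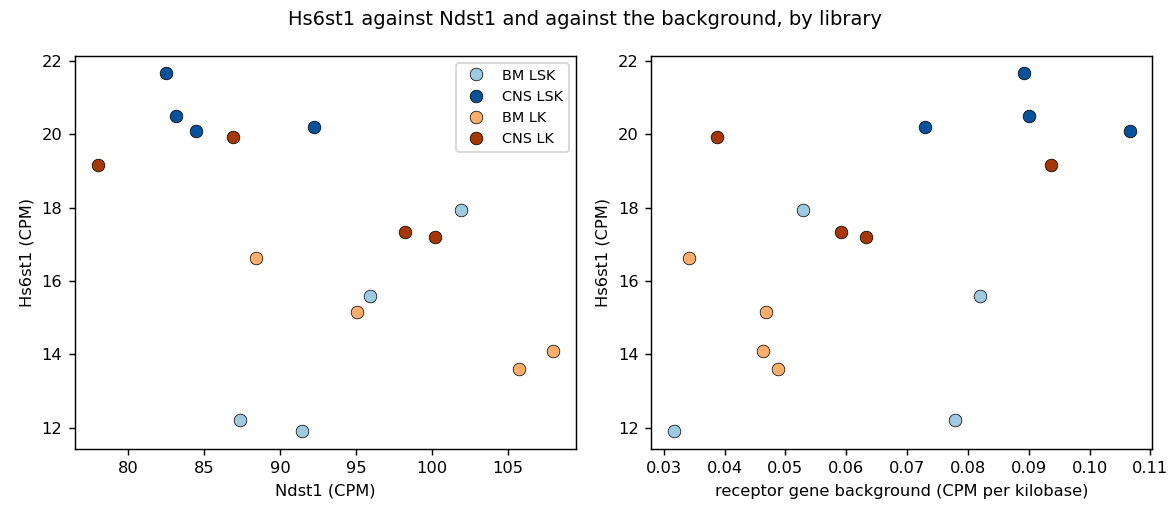
Hs6st1 in CPM for each of the 16 libraries, coloured by group, against Ndst1 in CPM (left) and against the receptor gene background in CPM per kilobase (right). The axes do not start at 0. The CNS libraries lie between 17.2 and 21.7 CPM of Hs6st1 and the BM libraries between 11.9 and 17.9, at backgrounds that overlap.

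Hs2st1 and Glce, which act before 6-O-sulfation, overlapped between niches in LK cells. Hs2st1 was 17.2 ± 1.14 CPM in BM LSK, 16.3 ± 0.679 in CNS LSK, 16.04 ± 1.01 in BM LK and 15.9 ± 1.81 CPM in CNS LK. Its log2 niche difference in LK cells was −0.01 (95% interval −0.20 to 0.18), with the CNS higher in 3 of 8 stems. The ratio of Hs6st1 to Hs2st1 per kilobase was 1.25 ± 0.334 in BM LSK and 1.87 ± 0.0643 in CNS LSK, and 1.38 ± 0.12 in BM LK and 1.73 ± 0.21 in CNS LK. In LSK the ratios ran from 0.983 to 1.71 in BM and from 1.78 to 1.92 in the CNS, without overlap. In LK they overlapped, from 1.22 to 1.51 in BM and from 1.42 to 1.903 in the CNS. The share of Hs6st1 in the summed level of the 9 was 8.85% in BM LSK, 12.8% in CNS LSK, 9.12% in BM LK and 11.4% in CNS LK.

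Glce was 13.1, 12.6, 11.96 and 13.4 CPM in BM LSK and 11.9, 11.6, 11.1 and 11.0 CPM in CNS LSK. The CNS LSK libraries lay below all BM LSK libraries, by 11.94 under 11.96 CPM, with a log2 difference of −0.16 ± 0.12 (SE). In LK cells Glce was 14.3, 10.7, 10.4 and 10.8 CPM in BM and 13.2, 8.93, 12.9 and 12.3 CPM in the CNS. These LK groups overlapped, and the log2 difference was 0.03 (95% interval −0.23 to 0.29). Over both cell types CNS exceeded BM in 2 of 8 stems for Glce, as for Sulf2.

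Sulf2 varied more between libraries of a group than between groups. It was 4.78, 0.706, 1.33 and 0.608 CPM in BM LSK and 2.95, 1.24, 1.21 and 0.589 CPM in CNS LSK. In LK cells it was 2.26, 0.823, 1.72 and 0.638 CPM in BM and 1.81, 0.550, 1.16 and 0.836 CPM in the CNS. The library numbered 1 was the highest in each of the 4 groups, and the labels do not say what the number marks. These values rest on 13 to 90 counts, and the biological coefficient of variation fitted by edgeR was 0.560 for Sulf2 against 0.0889 to 0.147 for the other 8. The LK niche difference of −0.34 had an interval of −1.62 to 0.94, which includes a level 2-fold lower. Exons of Sulf2 share 154 bases with Ncoa3 on the opposite strand, at 82.4 CPM, and use of strand in the counting is not given in the sources used here, so Sulf2 values are uncertain.

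**Figure D3:**
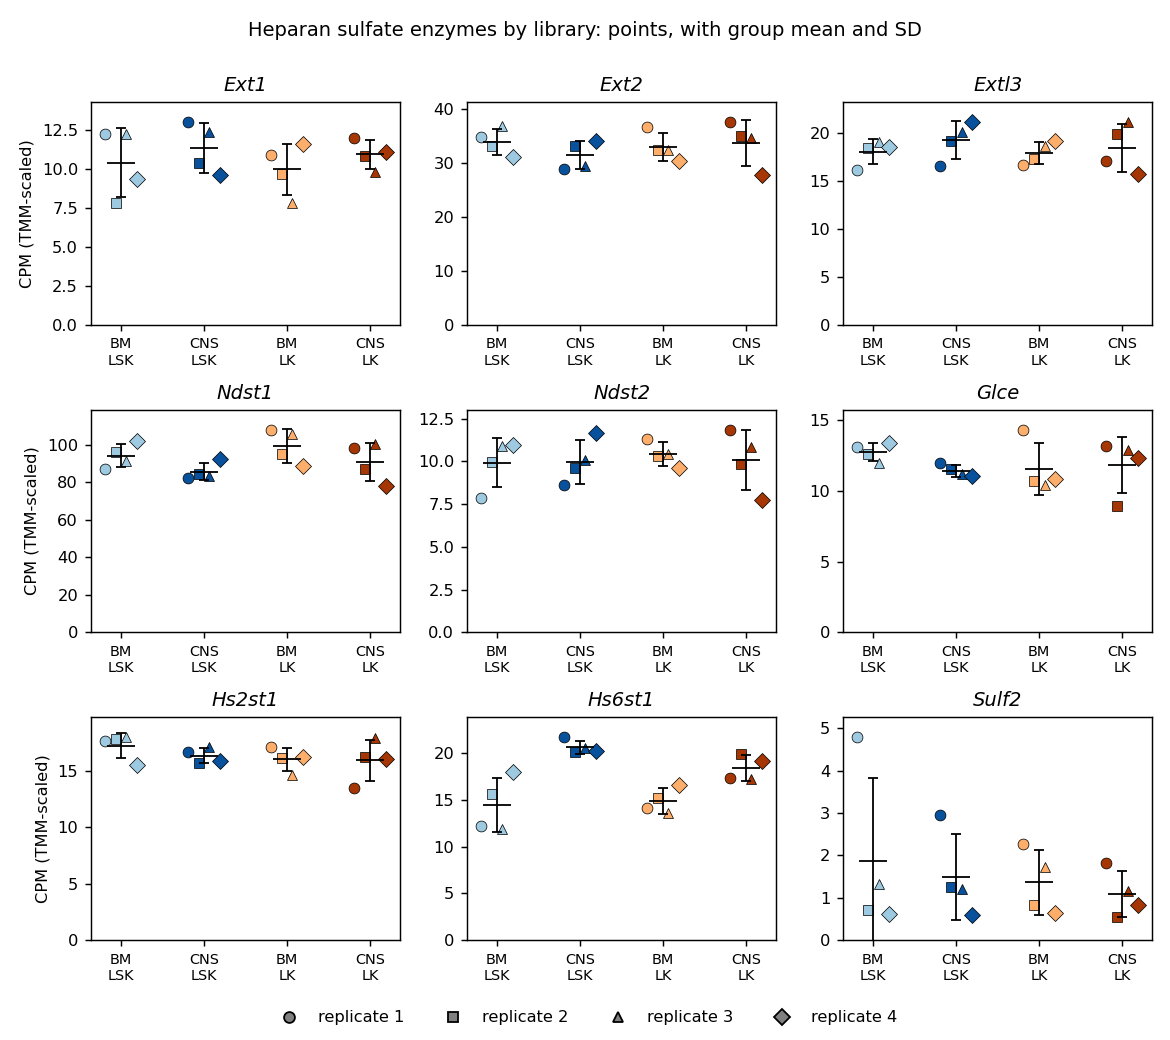
CPM of each of the 9 enzymes by group, with 1 point per library (shape gives the library number in the title) and a black bar for the group mean with SD, n = 4. In the Hs6st1 panel both CNS groups (means 20.6 and 18.4) lie above the BM groups (14.4 and 14.9), while in the Sulf2 panel the circles, the libraries numbered 1, are highest in each group.

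Read over the list, the niche comparison in LK cells called 0 of 9 enzymes at an adjusted p under 0.05, and 0% of 18878 genes were called. At an unadjusted p under 0.05 it held 1 of 9, Hs6st1, against 3.99% of all genes. The LK groups did not overlap for 1 of 9, again Hs6st1, against 2.18% of all genes. The median log2 difference of the 9 was 0.03, beside 0.005 over all genes tested. A count of 1 among 9 does not set the list apart from these shares.

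In LSK cells, where the rule used the contrast, 0 of 9 passed the adjusted threshold (0% of all genes), 1 of 9, Hs6st1, had an unadjusted p under 0.05 (5.74% of all genes) and 2 of 9, Hs6st1 and Glce, had groups that did not overlap (3.68% of all genes). The choice of Hs6st1 fixed its place in these counts. Over both cell types 0 of 9 passed (0% of all genes) and 2 of 9, Hs6st1 and Ndst1, had an unadjusted p under 0.05 (9.15% of all genes). For the difference between the niche effects, 0 of 9 passed (0% of all genes), and 0 of 9 had an unadjusted p under 0.05 (1.49% of all genes). CNS lay above BM without overlap in LSK and in LK separately for Hs6st1 alone of the 9, and for 25 of 18878 genes (0.132%). The LSK side of this count was fixed by the choice of Hs6st1, and the LK side is the count given for LK cells.

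Between LPC types no enzyme passed the adjusted threshold. In BM, 0 of 9 were called (0% of all genes), 0 of 9 had an unadjusted p under 0.05 (6.38%) and 0 of 9 had groups without overlap (3.13%). In the CNS, 0 of 9 were called (0%), 0 of 9 had an unadjusted p under 0.05 (6.58%) and 1 of 9 had no overlap (3.65%). That gene was Hs6st1, whose CNS LSK values are among those it was singled out by, with CNS LSK libraries from 20.1 CPM upward and CNS LK libraries up to 19.9 CPM, and a log2 difference of 0.16 (95% interval −0.07 to 0.40). With median-of-ratios scaling, or with no count filter, these groups overlapped. Over both niches 0 of 9 were called, against 45 of 18878 genes (0.238%). At an unadjusted p under 0.05 there were 0 of 9 (12.1% of all genes). These counts over both niches take the BM and CNS libraries of a stem as independent.

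The intervals over both niches take every library as independent, although the BM and CNS libraries of a stem share an LPC type. Their deviations correlated by 0.34 to 0.62 in 8 of 8 stems at a minimum of 50 counts. At the minimum of 10 counts used for testing, the correlation was over 0.1 in 6 of 8. The intervals can therefore be too narrow, and they do not bound what LSK and LK cells could differ by. On the log2 scale, LSK minus LK was −0.08 for Ndst1 (95% interval −0.21 to 0.04), −0.03 for Ext2 (−0.17 to 0.11) and 0.07 for Hs2st1 (−0.06 to 0.20). It was 0.06 for Hs6st1 (−0.11 to 0.23), 0.04 for Extl3 (−0.11 to 0.19) and 0.04 for Glce (−0.14 to 0.23). Ext1 differed by 0.05 (−0.17 to 0.28) and Ndst2 by −0.04 (−0.24 to 0.16). For these 8 enzymes the intervals stay within 0.28 of 0. Sulf2 had 0.45 with an interval of −0.44 to 1.34, and −0.073 without BM LSK 1.

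**Figure D4:**
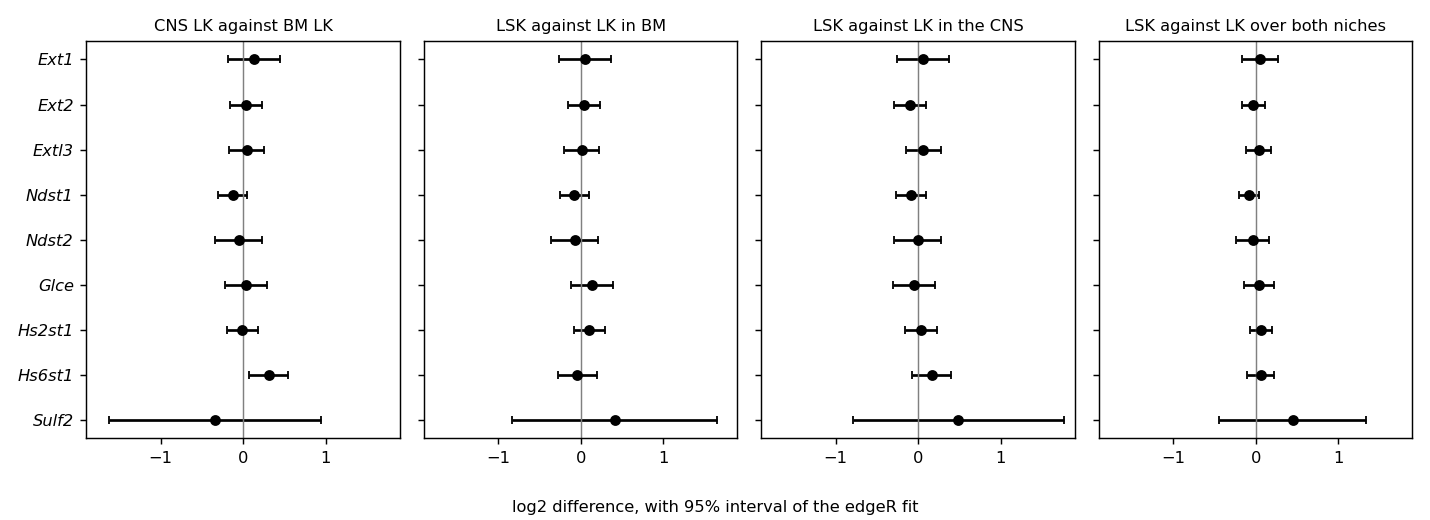
Log2 difference of each of the 9 enzymes in the 4 comparisons that were tested, as points with 95% intervals from the edgeR fit. Hs6st1 between niches in LK cells, at 0.31, is the only interval that does not span 0, before adjustment over genes, and the Sulf2 intervals are the widest.

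The wider pathway was read from a list of 69 further genes, of which 48 were tested and 21 fell below the minimum count. In all 7 comparisons 0 of the 48 passed an adjusted p of 0.05. Over all genes 0.238% passed between LPC types over both niches, and 0% in each other comparison. Enzymes that share a step with the 9 were mostly near the receptor gene background. Hs6st2 (0.256 CPM) and Hs6st3 (0.127 CPM), the other 6-O-sulfotransferases, were at 0.507 and 1.15 times the background per kilobase. Ndst3 and Ndst4 were at 0.840 and 0.723 times, and Sulf1, the other endosulfatase, at 1.00 times the background. All 7 of the 3-O-sulfotransferase genes, which add the rarest modification, were below the minimum, the highest being Hs3st3b1 (0.311 CPM), Hs3st4 (0.285 CPM) and Hs3st3a1 (0.277 CPM). Hpse, which cleaves the chain, stood at 0.234 CPM and Hpse2, a relative without that activity, at 0.647 CPM. Extl2 and Extl1, relatives of the exostosins, averaged 5.45 and 0.726 CPM.

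Steps around the chain were represented. All 7 linkage genes were tested, led by B3gat3 (17.1 CPM), Xylt1 (16.3 CPM) and Fam20b (16.2 CPM). All 12 genes of sugar and sulfate donor supply were tested, led by Bpnt2 (48.8 CPM), Slc35d1 (31.2 CPM) and Uxs1 (22.3 CPM). All 10 lysosomal breakdown genes were tested, among them Gusb (36.2 CPM) and Glb1 (13.3 CPM). Of 10 chondroitin sulfate genes 6 were tested, led by Chsy1 (125 CPM), Chst11 (67.2 CPM) and Chpf (15.4 CPM). Per kilobase Chsy1, a chondroitin polymerase, was 463 times the background and Ndst1 173 times.

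Of 14 core protein genes 7 were tested, led by Hspg2 (perlecan, 34.5 CPM), Agrn (agrin, 32.1 CPM) and Gpc1 (glypican 1, a membrane-anchored core protein, 29.8 CPM). Gpc1 was 24.7, 24.2, 25.5 and 23.8 CPM in BM LK and 35.5, 37.2, 33.7 and 30.4 CPM in CNS LK. The 2 LK groups were apart, as they were in either direction for 2.18% of all genes. The log2 difference was 0.48 ± 0.13 (SE; 95% interval 0.21 to 0.75; edgeR p 0.00142, adjusted p 1.00), so it did not pass. In LSK cells Gpc1 was 28.4, 19.8, 35.4 and 27.8 CPM in BM and 27.6, 30.9, 35.9 and 36.7 CPM in the CNS, and these groups overlapped. CNS exceeded BM in 7 of 8 stems. Hspg2 ran from 11.9 to 55.0 CPM over the 16 libraries, and its LK niche difference of 0.03 had an interval of −0.83 to 0.89.

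At an unadjusted p under 0.05, the niche comparison in LK cells held 4 of the 48 higher in the CNS (Gpc1, Ndst3, Sulf1 and Hpse2) and 1 lower. Over all genes 2.86% were higher and 1.13% lower at this threshold. The median over the 48 was 0.0057, beside 0.005 over all genes. Of the 4, Ndst3, Sulf1 and Hpse2 averaged 0.536, 0.733 and 0.647 CPM, at 0.840 to 2.16 times the background, which was itself higher in CNS libraries. The part of the background in their differences was not tested. Between LPC types, 0 of the 48 had an unadjusted p under 0.05 in BM (6.38% of all genes) and 0 in the CNS (6.58%). Over both niches 3 were higher in LSK (Hpse2, B3galt6 and Tgfbr3) and 1 lower (Extl2), against 7.53% and 4.59% of all genes.

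**Figure D5:**
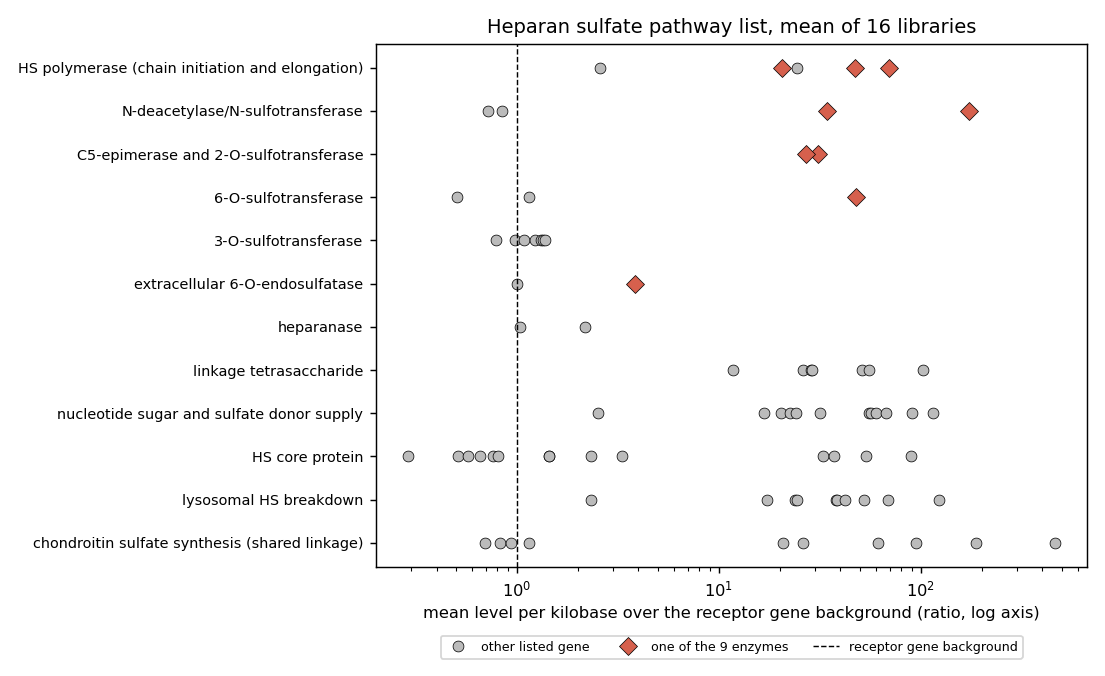
Mean level per kilobase over 16 libraries, divided by the receptor gene background (log axis), for each gene of the heparan sulfate pathway list, by role. Red diamonds are the 9 enzymes and grey circles the other listed genes, and the dashed line marks the background. All 7 of the 3-O-sulfotransferases lie at the line, while the linkage genes lie well to its right.

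Among the 3 genes most like Hs6st1 over the 16 libraries were Megf11 (Pearson's r of log2(CPM + 1) 0.79) and Gm48137 (0.79), out of 11639 genes with a mean of at least 50 counts. The points share the niche grouping and the scaling of their libraries. Among the other 8 enzymes r with Hs6st1 ran from −0.50 (Ext2) to 0.26 (Extl3).

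Markers of other cells that a sort could carry along were summed by list and set beside what receptor genes of the same length would give. Ranges are over the libraries of BM LSK, CNS LSK, BM LK and CNS LK, in that order. For 8 mast cell and basophil markers, cells rich in heparin, the sums were 1.38 to 2.87, 2.54 to 3.63, 1.65 to 3.16 and 2.16 to 4.43 CPM, against a background of 0.52 to 1.35, 1.20 to 1.76, 0.56 to 0.81 and 0.64 to 1.55 CPM. They were above the background, and Cpa3 was the highest of the list at a mean of 1.18 CPM.

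For 10 microglia and brain macrophage markers the sums were 5.78 to 6.88, 6.20 to 8.95, 5.14 to 5.95 and 6.08 to 8.38 CPM, against 0.97 to 2.50, 2.22 to 3.25, 1.04 to 1.49 and 1.18 to 2.85 CPM. These too were above the background. For 10 markers of neurons and glia the sums were 52.1 to 60.7, 49.3 to 68.7, 50.9 to 64.2 and 52.6 to 60.1 CPM, against 1.82 to 4.72, 4.2 to 6.13, 1.96 to 2.81 and 2.23 to 5.39 CPM. Most of this came from Mbp (36.2 CPM) and Tubb3 (14.5 CPM), and the sums overlapped between niches. For 8 endothelial markers they were 68.6 to 106, 63.7 to 93.7, 85.5 to 105 and 77.3 to 100.3 CPM, against 1.5 to 3.89, 3.46 to 5.05, 1.61 to 2.31 and 1.83 to 4.44 CPM, mostly from Pecam1 (81.9 CPM).

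For 8 fibroblast and meningeal markers the sums were 1.47 to 5.33, 4.39 to 8.39, 1.95 to 3.93 and 2.03 to 5.55 CPM, near their background of 1.98 to 5.12, 4.55 to 6.64, 2.13 to 3.04 and 2.41 to 5.84 CPM. For 9 myeloid markers they were 1.42 to 2.87, 2.13 to 5.04, 1.68 to 2.83 and 1.69 to 5.12 CPM, against 0.58 to 1.5, 1.33 to 1.94, 0.62 to 0.89 and 0.71 to 1.71 CPM. The 5 erythroid markers summed to 1.65 to 2.98, 1.97 to 2.78, 2.16 to 2.93 and 1.71 to 2.83 CPM, against 0.23 to 0.60, 0.54 to 0.78, 0.25 to 0.36 and 0.28 to 0.69 CPM. The 5 megakaryocyte and platelet markers summed to 0.44 to 2.55, 1.30 to 2.57, 0.92 to 1.44 and 0.89 to 1.65 CPM, against 0.32 to 0.84, 0.75 to 1.09, 0.35 to 0.50 and 0.40 to 0.96 CPM.

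No marker of these lists was at 0 in every library. The highest sum lay in a CNS library for the mast cell, microglia, fibroblast, myeloid, megakaryocyte, and neuron and glia lists, as did the highest Hs6st1. For the megakaryocyte list it was 2.57 CPM, against up to 2.55 CPM in BM LSK. For the endothelial and erythroid lists the highest sum lay in a BM library. The receptor gene background was also highest in a CNS library. The part of such cells in the Hs6st1 difference was not tested. In bulk libraries fewer cells with a transcript and less transcript per cell cannot be told apart.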

How the data were processed

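RNA of 16 libraries (4 groups of 4) was prepared with a stranded low-input total RNA kit, per the labels' protocols. The deposited table holds whole-number counts per Ensembl gene for 55414 identifiers; its name calls them normalised, but the totals differ between libraries, so they were used as raw counts. The submitters' processing notes name GRCm39 and DESeq2 without a role. The aligner, the counter and any use of strand or molecular identifiers are not given in the sources used here, so PCR copies and overlapping genes can affect values. Identifiers with no symbol held 41.8% of counts and stayed in library sizes, and 0 columns were left unused.

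Counts were scaled by TMM, genes with a mean of at least 10 counts (18878) were kept, and the 4 group means were fitted in edgeR 4.0.16 (R 4.3.3) using its quasi-likelihood F-test, with p-values adjusted by Benjamini-Hochberg over all genes at 0.05. The fit was tested on simulated counts drawn independently for each library, which cannot show an effect of correlation within stems. Library totals were 19.2 to 29.2 M. Exon lengths came from GENCODE M21 by gene identifier, and promoters and the microRNA from RefSeq. Alternatives were DESeq2 1.42.0, other scalings, count minimums, a background covariate, replicate blocks and leaving out each library. The BM and CNS libraries of 1 description stem were not taken as pairs: the meaning of a stem is not given in the labels, and their deviations correlated over 0.1 in 6 of 8 stems at the minimum of 10 counts used for testing, though in 8 of 8 at a minimum of 50. Every one of the 9 enzymes is named; other pathway genes are named where they passed or ranked in the top 3 of their role by mean CPM, and the 3 genes most like Hs6st1; some genes that these rules select are not reported here. Genes with an unadjusted p under 0.05, Hspg2 in detail and further relatives of the 9 were named after their values were seen. The members, lists and tests were chosen with earlier results of these data known.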

Additional observations from a re-analysis of the deposited data

Results flagged for a closer look

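Of 36 groups of 4 libraries (9 enzymes in 4 groups), 2 had a library far from the rest by Dixon's criterion, and chance gives about 1 in 20, or 1.8. Glce in BM LK 1 was 14.3 CPM, against 10.4 to 10.8 CPM in the other BM LK libraries. Hs2st1 in BM LSK 4 was 15.5 CPM, against 17.6 to 18.0 CPM in the other BM LSK libraries.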

How the results depend on the processing

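Across 25 alternatives, Hs6st1 stayed higher in the CNS: by 0.26 to 0.37 on the log2 scale in LK cells, where none of 24 alternatives called it, by 0.43 to 0.63 in LSK cells and by 0.35 to 0.47 over both. Its sign between LPC types in BM held in 21 of 24. The number of the 9 enzymes called was 1, Hs6st1, instead of 0 over both cell types with no filter on low counts and with DESeq2. With the description stem as a replicate block, 1 was called in LSK cells (Hs6st1, 0.53) and 1 over both cell types (Hs6st1, 0.42). These calls are in comparisons whose results were known when the enzymes were chosen, and they support nothing. In LK cells the block gave an adjusted p of 0.562 for Hs6st1 and 0.742 for Ndst1 (unadjusted 0.0205, from 0.146). By edgeR's test with the block, Gpc1 passed over both cell types (0.36, adjusted p 0.00889) but not in LK cells (0.48, adjusted p 0.0551). With the background covariate instead, the LK difference of Gpc1 was 0.63 ± 0.11 (SE, edgeR adjusted p 0.371). What stems mark is not given. The correlation within stems had a median of 0.20 at a minimum of 10 counts (over 0.1 in 6 of 8) and 0.43 at 50 counts (8 of 8, 0.34 to 0.62), and for title numbers it was over 0.1 in 4 of 8 and 6 of 8. The stem block called 0 enzymes between niches in LK cells and for the difference between the niche effects. It was not fitted between LPC types. The calls and intervals between LPC types over both niches therefore take no account of correlation within stems.

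Groups without overlap numbered 0 instead of 1 between niches in LK cells with no filter on low counts. Between LPC types in the CNS they numbered 0 with median-of-ratios scaling and 0 with no filter, and 1 to 2 when leaving out 1 library (2 without CNS LK 2, adding Glce, or CNS LK 4, adding Ext2). In BM they numbered 0 to 1 (Hs2st1 without BM LSK 4, Glce without BM LK 1). The Sulf2 difference between LPC types over both niches, 0.45, became −0.073 without BM LSK 1, and ran up to 0.64 when other libraries were left out. The highest enzyme level was 45.2 times the lowest per kilobase and 63.7 times in CPM with no length correction. The causes were not tested, except that length correction is the whole of the last change.

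Over all genes, calls between LPC types over both niches were 45 and became 290 with no filter, 10 with the background covariate, 162 with a replicate block on title numbers and 222 with DESeq2, and 15 to 137 leaving out 1 library. With 0 called, no filter gave 14 (niche in LK), 48 (LPC type in BM), 38 (in the CNS), 10 (niche in LSK) and 85 (niche over both). The stem block gave 12, 26 and 126 for niche in LK, in LSK and over both, and DESeq2 gave 39 and 6 for LPC type in BM and in the CNS and 40 for niche over both. Leaving out 1 library gave 0 to 2 between LPC types in BM and 0 to 13 in the CNS. DESeq2 called 0 for niche in LK (796 at an unadjusted p under 0.05, 754 by edgeR) and 0 for niche in LSK. Few counts limit Sulf2 and the relatives near background.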
